A study of Mus musculus with 17 samples.

Results

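The G1 cyclins, their kinases and the inhibitors that hold those kinases back were followed as 10 genes in sorted mouse hepatocytes, the metabolic cells of the liver. The 10 were chosen by name, as the rows of the count table whose identifiers map to Ccnd1, Ccnd2, Ccnd3, Ccne1, Ccne2, Cdk4, Cdk6, Cdkn1a, Cdkn1b and Cdkn2c. The table held 23461 genes in all, and 13721 of them, including all 10 members, passed the filter on low counts. RNA was counted in 17 samples of hepatocytes from male mice of 2 to 3 months. There were 3 Yap/Taz KO CCl4 samples, 4 Yap/Taz KO untreated, 5 WT CCl4 and 5 WT untreated. In the KO, the transcriptional coactivators Yap (gene Yap1) and Taz (gene Wwtr1) were knocked out. The labels name neither the alleles nor the driver of the deletion, and WT is labelled wildtype with no allele given. CCl4, a solvent that injures the liver cells that metabolise it, was given at 1 ug/g in 7 doses at 3-day intervals, and cells were taken 3 days after the last dose. The labels do not say that each sample came from its own animal, so p-values measure the spread between these samples, which may be technical. Sorting by FACS and the hepatocyte label are shared by all 4 groups.

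In G1, the phase before DNA synthesis, D cyclins bind the kinases CDK4 and CDK6, and E cyclins then bind CDK2. Together these kinases phosphorylate the retinoblastoma protein, which releases E2F transcription factors to switch on replication genes. The INK4 inhibitors, including p18 (Cdkn2c), bind CDK4 and CDK6, while the Cip/Kip inhibitors p21 (Cdkn1a) and p27 (Cdkn1b) bind cyclin-kinase complexes. Adult hepatocytes rest outside the cycle and re-enter it after injury or loss of liver mass. Cyclin D1 is known for marking their passage through G1, and p21 for delaying it.

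Totals ran from 11266420 to 24775863 counts per library. Yap1 ran from 0.536 to 8.04 CPM (counts scaled to a common library size) over the KO libraries and from 37.4 to 73.6 CPM over the WT libraries. Wwtr1 ran from 1.198 to 7.09 CPM over the KO libraries and from 9.86 to 23.4 CPM over the WT libraries. Neither gene overlapped between genotypes, and within the KO libraries Wwtr1 was higher after CCl4, by 1.33 ± 0.33 log2 with an edgeR adjusted p of 0.009183. Summed CPM of 8 hepatocyte markers lay between 91340 and 149400 in all libraries, and 3 of the 8 were lower in Yap/Taz KO CCl4 than in Yap/Taz KO untreated by edgeR. Mitochondrially encoded genes held 34.3% of counts in Yap/Taz KO CCl4 replicate 3 and 30.7% in WT untreated replicate 5, against 1.98 to 20.1% elsewhere. Summed CPM of 12 macrophage markers was 95.9, 257 and 4443 in Yap/Taz KO CCl4 replicates 1, 2 and 3. It ran from 0.342 to 9.38 in Yap/Taz KO untreated, from 11.4 to 116 in WT CCl4 and from 1.81 to 17.4 in WT untreated. Endothelial sums over 10 markers were 71.4 to 518, 14.4 to 20.9, 22.4 to 123 and 5.95 to 49.6 CPM in the same 4 groups, and stellate cell sums over 10 markers were 80.7 to 199, 6.98 to 10.6, 17.4 to 73.3 and 4.15 to 19.9 CPM. Of the 10 stellate markers, Pdgfrb and Acta2 were at 0 in all Yap/Taz KO untreated libraries and Acta2 in all WT untreated ones. The other stellate markers were detected in both untreated groups.

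**Figure D1:**
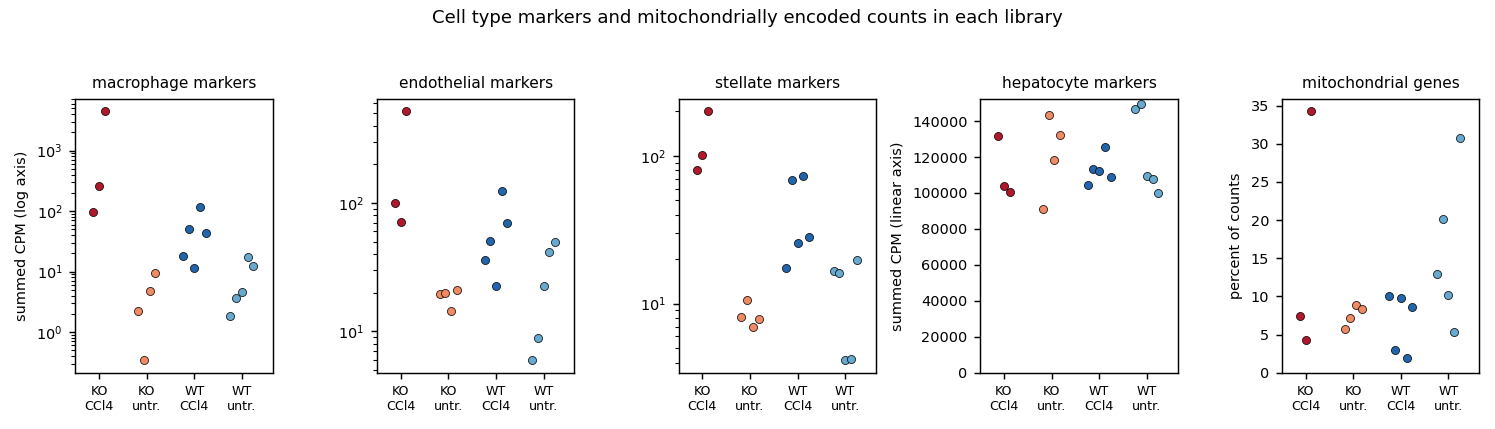
Summed CPM of macrophage, endothelial, stellate and hepatocyte markers (log axes for the first 3, linear for the last) and the percent of counts on mitochondrially encoded genes. Each dot is 1 library, and Yap/Taz KO CCl4 replicate 3 has the highest macrophage sum, 4443 CPM, and 34.3% mitochondrial counts.

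In Yap/Taz KO cells 3 of the 10 members were higher after CCl4, the genes of cyclin D1, cyclin D2 and p18. In WT cells the gene of p18 was higher. After CCl4, the gene of p21 was higher in Yap/Taz KO than in WT cells, and without CCl4 no member passed the edgeR test between genotypes. By edgeR no member fell in any of the 4 comparisons. These counts stand beside the share of all tested genes that edgeR called at a Benjamini-Hochberg adjusted p under 0.05. For Yap/Taz KO CCl4 against Yap/Taz KO untreated, 3 of 10 members rose and none fell, while 19% of all genes were called, with 12.1% higher and 6.96% lower. For WT CCl4 against WT untreated, 1 of 10 rose, with 0.853% of all genes called and 0.576% higher. For Yap/Taz KO CCl4 against WT CCl4, 1 of 10 rose, with 11.8% of all genes called, 7.62% higher and 4.21% lower. For Yap/Taz KO untreated against WT untreated, edgeR called 0 of 10, as did DESeq2 and limma voom, with 0.933% of all genes called by edgeR. At an unadjusted p under 0.05 that comparison held 3 members, Cdk6, Cdkn1a and Cdkn2c.

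The median log2 fold change of the 10 members was 0.87 for Yap/Taz KO CCl4 against Yap/Taz KO untreated, beside 0.01 over all tested genes. It was 0.60 for WT CCl4 against WT untreated, beside -0.01. Between genotypes it was 0.18 after CCl4, beside 0.04, and -0.18 without CCl4, beside -0.01. The difference of the CCl4 effects, KO minus WT, asks whether CCl4 moved a gene more in KO than in WT cells. For that difference edgeR, DESeq2 and limma voom each called 0 of 10 members, with 1.09% of all genes called by edgeR. At an unadjusted p under 0.05 it held 1 member, Ccnd1. The median difference was 0.58 over the members, beside 0.04 over all tested genes. With library totals in place of the trimmed mean of M values (TMM) scaling, the median over all genes moved to 0.20 for CCl4 in KO cells, 0.38 for CCl4 in WT cells, 0.14 between untreated genotypes and -0.16 for the difference. The share of calls that were higher was then 83.6% against 63.4% with TMM for CCl4 in KO cells, and 94.8% against 67.5% for CCl4 in WT cells. It was 74.2% against 62.5% between untreated genotypes and 60.7% against 72.7% for the difference. The members called for CCl4 in WT cells then numbered 3, with Ccnd1 and Ccne2 beside Cdkn2c.

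The comparisons within genotypes and between genotypes share libraries, so their values are given side by side and not as support for each other.

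**Figure D2:**
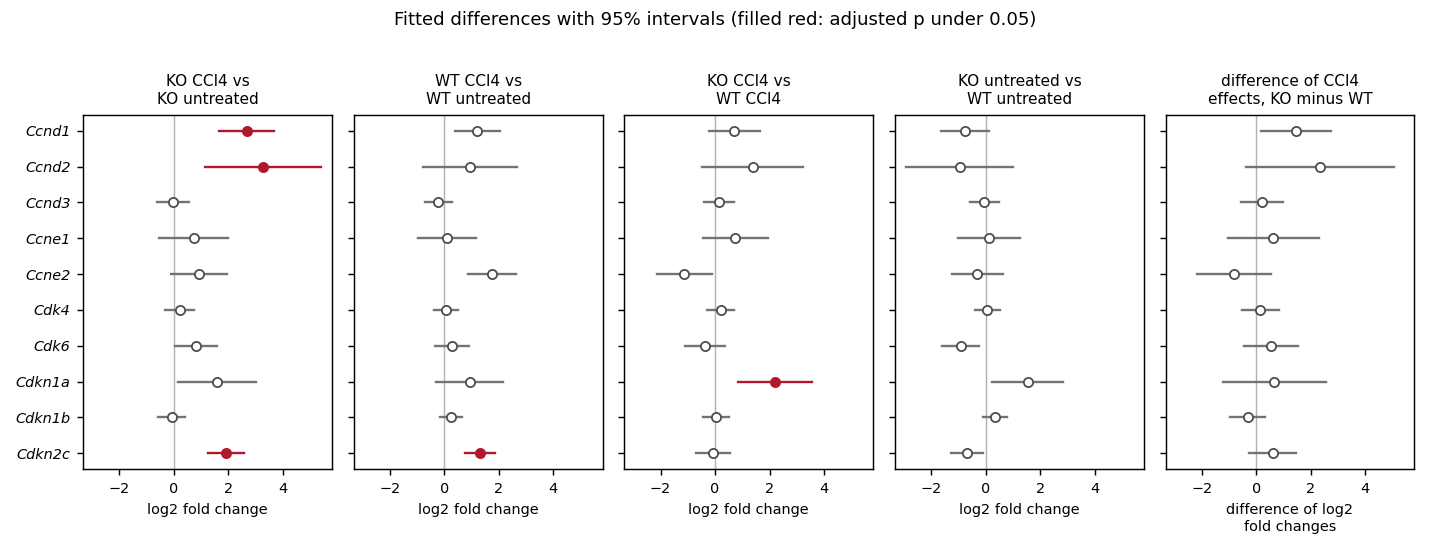
Log2 fold changes of the 10 members in 4 comparisons, and in the last panel the difference of the CCl4 effects, with 95% intervals from edgeR. Filled red points have an adjusted p under 0.05: Ccnd1, Ccnd2 and Cdkn2c in the first panel, Cdkn2c in the second and Cdkn1a in the third.

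Counted without any model, the groups were fully apart in CPM for 4 members in Yap/Taz KO CCl4 against Yap/Taz KO untreated, namely Ccnd1, Ccnd2, Ccne2 and Cdkn2c. All 4 were above, and 25.2% of all tested genes were apart in either direction and 14.4% above. For WT CCl4 against WT untreated, 2 members were apart and above, Ccne2 and Cdkn2c, with 4.84% of all genes apart, 3.15% above and 1.69% below. For Yap/Taz KO CCl4 against WT CCl4, 1 was apart and above, Cdkn1a, with 18.1% of all genes apart, 10.1% above and 7.97% below. For Yap/Taz KO untreated against WT untreated, the 2 groups overlapped for all 10 members, with 3.64% of all genes apart, 1.76% above and 1.89% below.

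**Figure D3:**
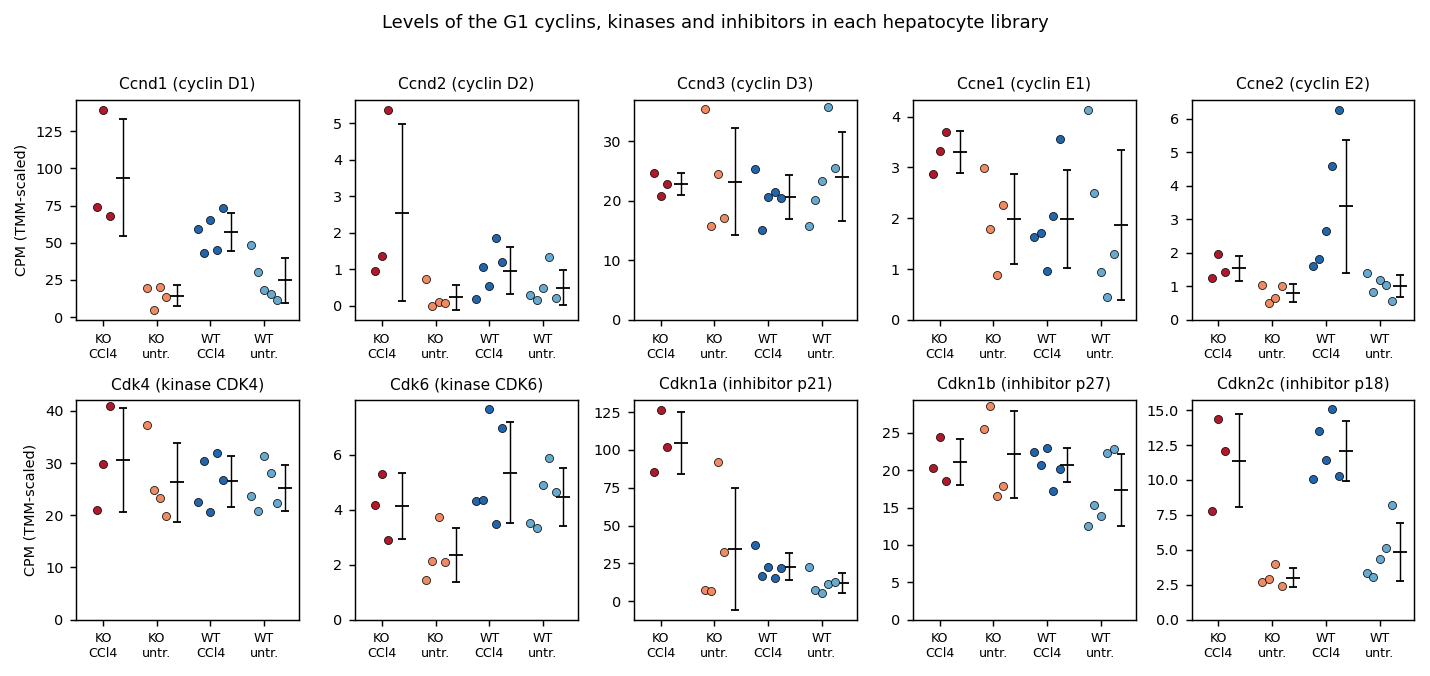
CPM of the 10 members in each of the 17 libraries (dots), with the group mean and SD as a bar to the right of each group. The 3 Yap/Taz KO CCl4 libraries lie above all others for Cdkn1a except 1 Yap/Taz KO untreated library at 91.8 CPM, and the CCl4 groups lie above their untreated groups for Cdkn2c in KO and in WT.

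Ccnd1 (ENSMUSG00000070348, mm10 chromosome 7, 144929931 to 144939925, minus strand) encodes cyclin D1. It had 74.1, 139 and 67.8 CPM in Yap/Taz KO CCl4 replicates 1 to 3, and 19.3, 4.88, 20.6 and 13.4 CPM in Yap/Taz KO untreated replicates 1 to 4. The lowest Yap/Taz KO CCl4 library stood above the highest Yap/Taz KO untreated one. The means were 93.6 ± 39.4 CPM in Yap/Taz KO CCl4 and 14.5 ± 7.15 CPM in Yap/Taz KO untreated (SD, n = 3 and 4). The log2 fold change was 2.68 ± 0.48 (SE), with an edgeR adjusted p of 0.001302. The call held with each of the 17 libraries left out in turn, at log2 2.28 to 2.89. Without Yap/Taz KO CCl4 replicate 3 it was 2.87, with an adjusted p of 0.003109.

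In WT cells, Ccnd1 had 59.0, 43.1, 65.3, 45.2 and 73.1 CPM after CCl4, against 48.6, 30.1, 18.1, 15.6 and 11.6 CPM in untreated cells. WT untreated replicate 1 reached into the range of the CCl4 libraries. The log2 fold change was 1.21 ± 0.39, with an unadjusted p of 0.007136 and an edgeR adjusted p of 0.1629. With library totals in place of TMM scaling it passed, at log2 1.59, beside the all-gene shift of 0.38, and an adjusted p of 0.04969. The CCl4 effect was 1.47 ± 0.61 log2 larger in KO than in WT cells, with a 95% interval of 0.19 to 2.76 and an edgeR adjusted p of 0.2229. Between genotypes, Ccnd1 differed by 0.71 ± 0.44 after CCl4 and by -0.76 ± 0.42 without it, with adjusted p of 0.3318 and 0.6774 by edgeR.

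Ccnd2 (ENSMUSG00000000184, chromosome 6, 127125162 to 127152193, minus strand) encodes cyclin D2 and was the member with the fewest counts. Yap/Taz KO CCl4 libraries had 0.957, 1.36 and 5.36 CPM from 16, 38 and 68 counts, and Yap/Taz KO untreated libraries had 0.747, 0, 0.110 and 0.0838 CPM from 17, 0, 2 and 1 counts. The groups did not overlap, and replicate 1 of Yap/Taz KO untreated lay just below the lowest Yap/Taz KO CCl4 library. Ccnd2 rose by 3.26 ± 1.01 log2, with an edgeR adjusted p of 0.03129. It was 2.14 without Yap/Taz KO CCl4 replicate 3, with an adjusted p of 0.1994. The call was also lost without Yap/Taz KO untreated replicate 2, 3 or 4, at log2 2.91, 3.02 and 3.02 and adjusted p of 0.06673, 0.0827 and 0.08043, and with only the groups compared in the fit, at 3.25 and 0.09679. Without Yap/Taz KO untreated replicate 1 it was 5.06, with an adjusted p of 0.008522. Replicate 3 of Yap/Taz KO CCl4, the highest in Ccnd2, also had the highest sums of macrophage, endothelial and stellate markers, and their part in this result was not tested. In bulk samples, fewer cells of a type and less RNA per cell cannot be told apart. In WT cells, Ccnd2 had 0.187, 1.07, 0.535, 1.85 and 1.20 CPM after CCl4, against 0.302, 0.167, 0.503, 1.33 and 0.217 CPM untreated, and the groups overlapped.

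Ccnd3 (ENSMUSG00000034165, chromosome 17, 47505051 to 47599691, plus strand) encodes cyclin D3. It had 24.6, 20.9 and 22.8 CPM in Yap/Taz KO CCl4 libraries and 35.4, 15.8, 24.5 and 17.2 CPM in Yap/Taz KO untreated ones. WT CCl4 libraries ran from 15.1 to 25.4 CPM and WT untreated libraries from 15.7 to 35.8 CPM. All groups overlapped, and the 95% intervals of its 4 fold changes lay between -0.72 and 0.71 log2. Of the 3 D cyclins, Ccnd1 and Ccnd2 rose in KO cells after CCl4 and Ccnd3 passed no test.

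Ccne1 (ENSMUSG00000002068, chromosome 7, 38097984 to 38107534, minus strand) and Ccne2 (ENSMUSG00000028212, chromosome 4, 11191351 to 11204779, plus strand) encode the E cyclins, which partner CDK2 late in G1. Ccne2 had 1.26, 1.97 and 1.42 CPM in Yap/Taz KO CCl4 libraries, against 1.05, 0.513, 0.660 and 1.01 CPM in Yap/Taz KO untreated ones. These groups did not overlap, and the log2 fold change of 0.93 ± 0.49 had an edgeR adjusted p of 0.2142. In WT cells Ccne2 had 1.62, 1.83, 2.64, 4.59 and 6.27 CPM after CCl4, against 1.41, 0.834, 1.19, 1.03 and 0.578 CPM untreated. These did not overlap either. The log2 fold change was 1.75 ± 0.41, with an edgeR adjusted p of 0.05784.

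Ccne2 in WT cells was called by DESeq2, at log2 1.77 and an adjusted p of 0.005363, and by edgeR with library totals, at 2.11 and 0.01974. edgeR also called it without WT CCl4 replicate 1, at 1.92 and an adjusted p of 0.04425, and without Yap/Taz KO CCl4 replicate 3, at 1.75 and 0.04985. Yap/Taz KO CCl4 replicate 3 is in neither WT group, and 14239 genes were tested without it. After CCl4, Ccne2 was lower by fit in Yap/Taz KO than in WT cells, at -1.13 ± 0.47 log2, but the groups overlapped and the edgeR adjusted p was 0.1372. The CCl4 effects of Ccne2 differed by -0.82 ± 0.64, with an interval of -2.17 to 0.53.

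Ccne1 had 2.87, 3.33 and 3.70 CPM in Yap/Taz KO CCl4 libraries, against 2.99, 1.80, 0.879 and 2.26 CPM in Yap/Taz KO untreated ones. It had 1.62, 1.702, 0.963, 2.05 and 3.56 CPM in WT CCl4 libraries, against 4.13, 2.502, 0.942, 0.442 and 1.301 CPM in WT untreated ones. The WT untreated values spanned the whole range of the WT CCl4 ones. Its log2 fold changes were 0.73 ± 0.60 for CCl4 in KO cells and 0.10 ± 0.51 for CCl4 in WT cells, with edgeR adjusted p of 0.4668 and 0.9538.

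Cdk4 (ENSMUSG00000006728, chromosome 10, 127063534 to 127067920, plus strand) encodes the D cyclin kinase that was the more abundant here. It had 20.99, 29.8 and 41.0 CPM in Yap/Taz KO CCl4 libraries and 37.2, 24.9, 23.3 and 19.9 CPM in Yap/Taz KO untreated ones. WT CCl4 libraries ran from 20.7 to 32.0 CPM and WT untreated libraries from 20.9 to 31.3 CPM. All groups overlapped, and the 95% intervals of its 4 fold changes lay between -0.40 and 0.73 log2. Cdk4 shares its 3-prime end with Tspan31 on the opposite strand, which averaged 181 CPM over the 17 libraries. The strand of counting was not given, so reads of this overlap cannot be told apart. The same holds for 3 cyclin genes, whose opposite-strand neighbours averaged 16.97 CPM (Ints8 over Ccne2), 8.56 CPM (Lto1 over Ccnd1) and 15.35 CPM (Bysl over Ccnd3).

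Cdk6 (ENSMUSG00000040274, chromosome 5, 3341485 to 3531008, plus strand) encodes the related kinase CDK6. It had 1.45, 2.14, 3.74 and 2.09 CPM in Yap/Taz KO untreated libraries, against 3.53, 3.33, 4.90, 5.90 and 4.62 CPM in WT untreated ones. Only replicate 3 of Yap/Taz KO untreated reached into the WT range. On the log2 scale the difference was -0.92 ± 0.33, with an unadjusted p of 0.01189 and an edgeR adjusted p of 0.3073. After CCl4 it had 4.18, 5.29 and 2.91 CPM in Yap/Taz KO cells, against 4.30, 4.35, 7.67, 3.46 and 6.97 CPM in WT cells. For CCl4 in KO cells the log2 fold change was 0.81 ± 0.36, with an edgeR adjusted p of 0.1363, and 1.14 with an adjusted p of 0.04399 without Yap/Taz KO untreated replicate 3.

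Cdkn1a (ENSMUSG00000023067, chromosome 17, 29090976 to 29100727, plus strand) encodes p21, a well-known target of the tumour suppressor p53. The 250 bases before each of its 2 starts in RefSeq are shown because they differ in the motifs they hold, beside the window of Cdkn1b, whose level did not pass any test. Sequences are from RefSeq on GRCm38.p6, plus strand, 5′ to 3′, at chr17:29090729-29090978 and chr17:29093519-29093768 for Cdkn1a and chr6:134920151-134920400 for Cdkn1b. Capitals mark matches to the p53 consensus element, the GC box (GGGCGG) and CCAAT.
Cdkn1a start 1: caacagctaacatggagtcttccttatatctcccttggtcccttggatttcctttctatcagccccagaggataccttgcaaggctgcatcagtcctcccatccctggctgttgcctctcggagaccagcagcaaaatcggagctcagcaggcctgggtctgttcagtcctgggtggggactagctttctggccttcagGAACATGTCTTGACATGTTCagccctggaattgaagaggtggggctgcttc
Cdkn1a start 2: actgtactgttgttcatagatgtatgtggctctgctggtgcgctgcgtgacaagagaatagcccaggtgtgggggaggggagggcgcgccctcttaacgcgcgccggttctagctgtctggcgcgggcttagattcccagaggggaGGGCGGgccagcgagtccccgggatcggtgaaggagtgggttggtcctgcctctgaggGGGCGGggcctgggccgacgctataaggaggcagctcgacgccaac
Cdkn1b start 1: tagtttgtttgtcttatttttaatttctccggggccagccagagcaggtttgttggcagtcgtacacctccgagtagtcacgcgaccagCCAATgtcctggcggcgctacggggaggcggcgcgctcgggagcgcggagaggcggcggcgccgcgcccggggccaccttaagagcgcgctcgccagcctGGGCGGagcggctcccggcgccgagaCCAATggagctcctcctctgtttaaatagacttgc
The match to the p53 consensus element begins at position -51 of the start 1 window, counted back from the start, with no more than 1 mismatch. It is found in 15 of 32851 promoters of the same length, or 0.0457%. The start 2 window holds 2 GC boxes and no p53 match, and the Cdkn1b window holds 1 GC box and 2 CCAAT words. A match is a description and not a measured site of binding.

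Cdkn1a had 85.1, 126 and 102 CPM in Yap/Taz KO CCl4 libraries and 37.5, 16.5, 22.4, 15.2 and 22.3 CPM in WT CCl4 libraries. The groups did not overlap, and the lowest Yap/Taz KO CCl4 library stood well above WT CCl4 replicate 1, the highest of its group. The means were 104.5 ± 20.7 CPM in Yap/Taz KO CCl4 and 22.8 ± 8.85 CPM in WT CCl4 (SD, n = 3 and 5). The log2 fold change was 2.20 ± 0.64, with an edgeR adjusted p of 0.03581. With each library left out it was 2.04 to 2.45, and the call was lost in 6 of 17 cases: without WT CCl4 replicate 2, 3, 4 or 5 (adjusted p = 0.08301, 0.07171, 0.07469 and 0.068) and without Yap/Taz KO CCl4 replicate 2 or 3 (0.08797 and 0.1197).

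In untreated cells Cdkn1a split the KO libraries. It had 7.25, 6.68, 91.8 and 32.3 CPM in Yap/Taz KO untreated replicates 1 to 4, against 22.5, 7.42, 5.53, 11.7 and 12.7 CPM in WT untreated libraries. Replicates 3 and 4 stood above every WT untreated library, and replicates 1 and 2 lay within the WT range. Over all genes, replicates 3 and 4 were also the most alike pair within any group, at a chi-square per gene of 23.39. This measure is lower the more alike 2 libraries are, and the other pairs of their group ran from 98.26 to 198.5. What sets this pair apart was not tested. For Cdkn1a, Yap/Taz KO untreated was higher by fit by 1.54 ± 0.61 log2, with an edgeR adjusted p of 0.4092, and 0.36 with an adjusted p of 0.9462 without Yap/Taz KO untreated replicate 3. Against the same 4 libraries, Yap/Taz KO CCl4 was higher by 1.60 ± 0.68 log2, with an edgeR adjusted p of 0.1218. That comparison passed without Yap/Taz KO untreated replicate 3, at 2.77 and an adjusted p of 0.006536, and by limma voom, at 2.39 and 0.02115.

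The CCl4 effect on Cdkn1a in WT cells was 0.93 ± 0.58 log2, with an edgeR adjusted p of 0.4895. It differed from the effect in KO cells by 0.66 ± 0.89, with an interval of -1.22 to 2.55, which spans 0 and differences in either direction. With each library left out in turn it was never called, and ran from 0.31 without WT untreated replicate 1 to 1.84 without Yap/Taz KO untreated replicate 3. Trp53, which encodes p53, differed by 0.18 ± 0.34 log2 for CCl4 in KO cells and by 0.70 ± 0.32 between genotypes after CCl4, with edgeR adjusted p of 0.7872 and 0.1721.

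Cdkn1b (ENSMUSG00000003031, chromosome 6, 134920401 to 134925513, plus strand) encodes p27. It had 20.3, 24.5 and 18.5 CPM in Yap/Taz KO CCl4 libraries and 25.5, 28.6, 16.6 and 17.9 CPM in Yap/Taz KO untreated ones. It ran from 17.2 to 22.9 CPM in WT CCl4 and from 12.5 to 22.8 CPM in WT untreated libraries. All groups overlapped, and the 95% intervals of the 4 fold changes lay between -0.57 and 0.79 log2.

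Cdkn2c (ENSMUSG00000028551, chromosome 4, 109660876 to 109667189, minus strand) encodes p18, the INK4 inhibitor that was called in both genotypes after CCl4. It had 7.77, 14.3 and 12.1 CPM in Yap/Taz KO CCl4 libraries, against 2.68, 2.91, 3.96 and 2.43 CPM in Yap/Taz KO untreated ones. The groups did not overlap. The log2 fold change was 1.92 ± 0.32, with an edgeR adjusted p of 0.000774, and the call held with each of the 17 libraries left out, at 1.71 to 2.13.

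In WT cells Cdkn2c had 10.04, 13.5, 11.45, 15.1 and 10.3 CPM after CCl4, against 3.33, 3.09, 4.33, 5.16 and 8.24 CPM untreated. The groups did not overlap, and the highest WT untreated value was that of replicate 5, the library with 30.7% mitochondrial counts. On the log2 scale WT CCl4 was higher by 1.32 ± 0.26, with an edgeR adjusted p of 0.02384. The call was lost without WT CCl4 replicate 2 or 4 (adjusted p = 0.06136 and 0.06255) and without WT untreated replicate 1, 2 or 3 (0.06577, 0.06998 and 0.07353), at log2 1.19 to 1.28. The CCl4 effects in KO and WT differed by 0.61 ± 0.41, with an interval of -0.25 to 1.47. After CCl4 the genotypes differed in Cdkn2c by -0.08 ± 0.30, with an interval of -0.71 to 0.54. WT CCl4 replicates 2 and 4, the highest in Cdkn2c, were alike over all genes (chi-square per gene 25.72). So were replicates 1, 3 and 5 (34.25 to 40.51), and pairs across these sets ran from 96.76 to 171.2. Mitochondrial counts were 2.96 and 1.98% in replicates 2 and 4, against 8.63 to 10.01% in replicates 1, 3 and 5. Ccnd1 and Cdkn1a were lower and Cdk4 higher in replicates 2 and 4, and the other members overlapped. What sets them apart was not tested.

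Levels of different genes were compared per length, as CPM per kilobase of exon. Cdkn1a had the highest mean in Yap/Taz KO CCl4, at 29.4 ± 5.83 CPM per kb (SD, n = 3), followed by Ccnd1 at 19.9 ± 8.37 and Cdk4 at 9.41 ± 3.08. Cdkn1a and Ccnd1 overlapped between libraries, while Ccnd1 and Cdk4 did not. In Yap/Taz KO untreated the order began with Cdkn1a at 9.71 ± 11.3, Cdk4 at 8.11 ± 2.32 and Cdkn1b at 4.87 ± 1.28 (n = 4), all overlapping their neighbours. Cdkn1a was at 2.04, 1.88, 25.85 and 9.08 in its replicates 1 to 4. In replicates 1 and 2 it lay below Cdk4, which was at 11.46 and 7.66.

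In WT CCl4 the order began with Ccnd1 at 12.1 ± 2.74 CPM per kb, Cdk4 at 8.15 ± 1.5 and Cdkn1a at 6.41 ± 2.49 (n = 5). In WT untreated it began with Cdk4 at 7.77 ± 1.33, Ccnd1 at 5.27 ± 3.18 and Cdkn1b at 3.81 ± 1.07 (n = 5). Neighbours among these leading genes overlapped in both WT groups. Ccnd2 had the lowest mean in all 4 groups, at 0.272, 0.0250, 0.103 and 0.0535 CPM per kb in Yap/Taz KO CCl4, Yap/Taz KO untreated, WT CCl4 and WT untreated. Cdk6 was 8 or 9 of 10 in rank in Yap/Taz KO CCl4, Yap/Taz KO untreated, WT CCl4 and WT untreated.

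**Figure D4:**
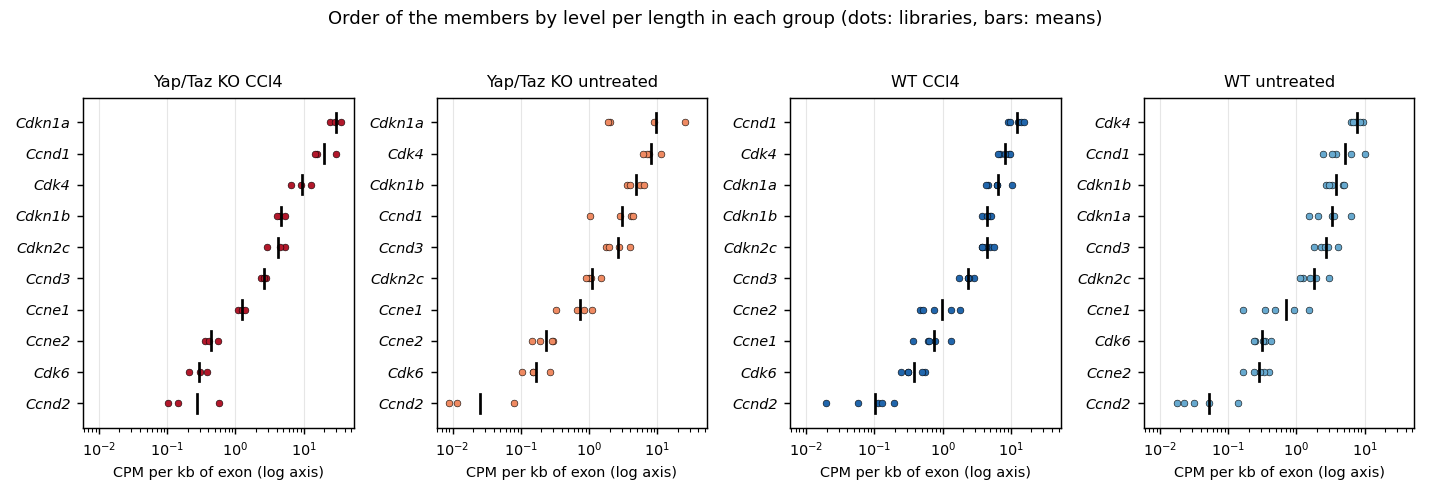
CPM per kilobase of exon on a log axis, with the 10 members ordered by their mean in each group (dots are libraries, black bars are means; the 1 Yap/Taz KO untreated library at 0 for Ccnd2 cannot be drawn). By mean, Cdkn1a leads Yap/Taz KO CCl4 at 29.4 CPM per kb, Ccnd1 leads WT CCl4 at 12.1 and Cdk4 leads WT untreated at 7.77. In Yap/Taz KO untreated the Cdkn1a mean of 9.71 is the highest, but its replicates 1 to 4 are at 2.04, 1.88, 25.85 and 9.08.

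Within the D cyclins, Ccnd1 held 84.4, 92.1 and 82.0% of the summed CPM per kb in Yap/Taz KO CCl4 libraries, against 36.6 to 60.9% in Yap/Taz KO untreated ones. It held 78.4 to 86.3% in WT CCl4, against 43.9 to 85.0% in WT untreated libraries. Ccnd3 held most of the rest, at 12.4 ± 4.34% in Yap/Taz KO CCl4 and 48.1 ± 11.2% in Yap/Taz KO untreated (SD, n = 3 and 4). The make-up was thus apart between the 2 KO groups and overlapped between the 2 WT groups.

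Among the 3 inhibitors, Cdkn1a held 76.5, 76.8 and 77.1% of the summed CPM per kb in Yap/Taz KO CCl4 libraries, and 31.3 to 54.9% in WT CCl4 libraries. In Yap/Taz KO untreated libraries the share ran from 20.3 to 83.5%, and in WT untreated ones from 25.1 to 61.4%. The ratio of Cdkn1a to Ccnd1 per kb averaged 1.57 ± 0.40 in Yap/Taz KO CCl4 and 0.531 ± 0.177 in WT CCl4 (SD, n = 3 and 5), and the 2 groups did not overlap. It averaged 2.86 ± 2.32 in Yap/Taz KO untreated and 0.758 ± 0.466 in WT untreated, and these overlapped. Cdk6 held 2.21 to 4.71% of Cdk4 and Cdk6 per kb as group means. These shares are a description of levels, and a share moves when any gene of the sum does.

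**Figure D5:**
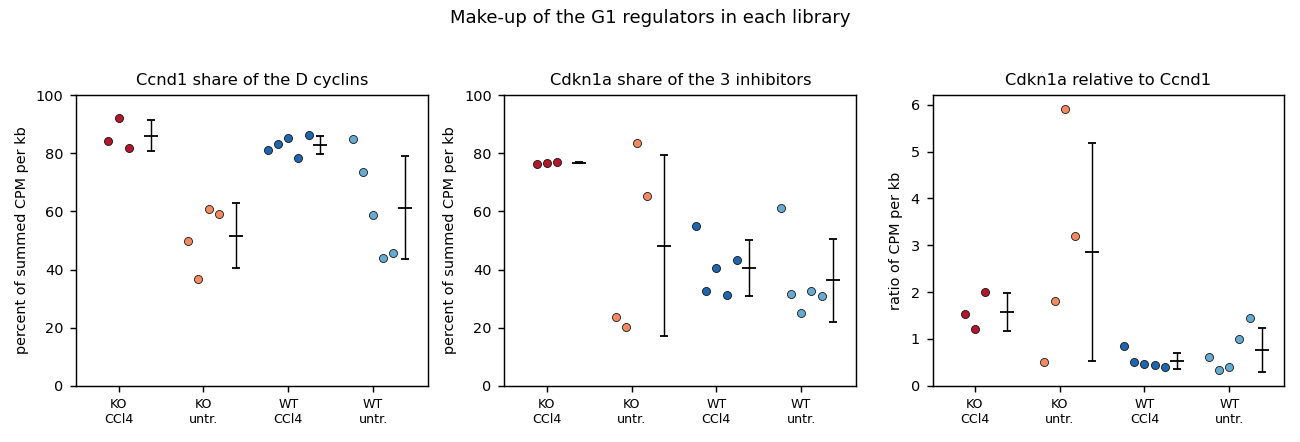
Share of Ccnd1 in the summed CPM per kb of the 3 D cyclins, share of Cdkn1a in that of the 3 inhibitors, and ratio of Cdkn1a to Ccnd1 per kb. Dots are libraries and bars give mean and SD; the Yap/Taz KO CCl4 libraries sit at 76.5 to 77.1% for Cdkn1a, above all WT CCl4 libraries.

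Other genes of the pathway were taken from lists. Their counts stand beside the shares of all tested genes that edgeR called. For CCl4 these shares were 12.1% higher and 6.96% lower in KO cells, and 0.576% and 0.277% in WT cells. Between genotypes they were 7.62% and 4.21% after CCl4, and 0.583% and 0.35% without it. For the difference of the CCl4 effects they were 0.794% and 0.299%. Of the 4 other CDK inhibitors, 2 passed the filter, and both rose in Yap/Taz KO CCl4 against Yap/Taz KO untreated. Cdkn1c, which encodes p57, rose by 2.36 ± 0.59 log2 and Cdkn2d, which encodes p19, by 1.49 ± 0.47, with edgeR adjusted p of 0.009484 and 0.03339. Cdkn1c kept its call with each library left out, while Cdkn2d lost it without Yap/Taz KO CCl4 replicate 2 or 3, or Yap/Taz KO untreated replicate 1, 2 or 3. With only the groups compared in the fit, Cdkn1c did not pass the filter and Cdkn2d had an adjusted p of 0.05664. Cdkn2a and Cdkn2b did not pass the filter. Of 13 pocket protein and E2F genes, E2f1 rose by 1.83 ± 0.24 and Rbl1, which encodes the pocket protein p107, by 2.78 ± 0.50. Rbl2, which encodes p130, the pocket protein of resting cells, fell by 0.89 ± 0.26. Their edgeR adjusted p were 0.0002729, 0.00135 and 0.02429. Rbl2 lost its call without Yap/Taz KO CCl4 replicate 3 or Yap/Taz KO untreated replicate 1 or 4. It was also lost with library totals (edgeR adjusted p = 0.2166), with only the groups compared (0.104) and with replicate numbers as a block (0.07943). Without both libraries over 30% mitochondrial counts it was 0.1296. The median over the 13 was 0.61, beside 0.01 over all genes.

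Further along the cycle in the same comparison, 15 of 23 tested S-phase genes known as E2F targets rose and 1 fell, with a median of 1.48 log2. The replication licensing genes Mcm6 and Mcm2 rose by 3.14 ± 0.40 and 3.13 ± 0.41, and Rrm2, a subunit of ribonucleotide reductase, by 2.81 ± 0.38, with edgeR adjusted p of 0.0002247, 0.0002718 and 0.0003356. Mcm10, a replication initiation factor, fell by 2.43 ± 0.54, with an edgeR adjusted p of 0.004565, and averaged 19.4 CPM in Yap/Taz KO CCl4 and 104.3 CPM in Yap/Taz KO untreated libraries. It was -3.33 without Yap/Taz KO CCl4 replicate 1, and it was not called with only the groups compared, at -2.40 and an adjusted p of 0.05465. That fit called 12 of the 23 higher and 0 lower. Of 11 later cyclins and kinases 7 rose, with a median of 5.53. Pkmyt1, an inhibitory kinase of CDK1, had 308 counts over the Yap/Taz KO CCl4 libraries and 3 over the Yap/Taz KO untreated ones, a ratio per scaled library total of 115.6 with a 95% counting interval of 39.2 to 563. The mitotic cyclin Ccnb2 rose by 7.31 ± 1.21 and Ccna2, the cyclin of S phase and G2, by 5.53 ± 1.04, with edgeR adjusted p of 0.0008062 and 0.001736, beside 0.0005964 for Pkmyt1. Without Yap/Taz KO CCl4 replicate 2 the log2 fold changes were 2.06 for Rrm2, 6.72 for Ccnb2 and 4.52 for Ccna2, and all were still called. Without Yap/Taz KO CCl4 replicate 3, 13 S-phase genes and 6 later cyclins and kinases were higher.

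Of 19 p53 targets other than Cdkn1a, 7 rose in Yap/Taz KO CCl4 against Yap/Taz KO untreated and none fell, with a median of 0.72. Phlda3 rose by 4.57 ± 0.64 and Psrc1 by 4.18 ± 0.59, each with an edgeR adjusted p of 0.0003915. The BH3-only death gene Pmaip1 had 486 counts over the Yap/Taz KO CCl4 libraries and 2 over the Yap/Taz KO untreated ones, a ratio of 273.5 with a 95% counting interval of 75.3 to 2265, and an edgeR adjusted p of 0.0009927. Its fitted log2 fold change of 8.35 was 5.35 without Yap/Taz KO CCl4 replicate 3 and 10.66 without Yap/Taz KO untreated replicate 1, which held both counts of its group, and edgeR still called it in each case. Limma voom did not call it, at 6.04 and an adjusted p of 0.05863, and DESeq2 gave it no adjusted p. The count of p53 targets was 4 without Yap/Taz KO untreated replicate 3, the library with the highest untreated Cdkn1a. Their summed CPM was 421, 384, 531 and 673 in Yap/Taz KO untreated replicates 1 to 4, and the 2 libraries high in Cdkn1a were also the 2 highest of their group in this sum. The sum and Cdkn1a did not go together in every library, since WT untreated replicate 2 had a sum of 641 CPM with Cdkn1a at 7.42 CPM. Of 10 transcription regulators of G1 genes, Klf4 rose by 6.49 ± 1.04 and Foxm1, which drives mitotic genes, by 6.23 ± 1.06, while Cebpa, a factor of hepatocyte quiescence, fell by 1.16 ± 0.28 and Mxi1, a MYC antagonist, by 0.65 ± 0.17. Their edgeR adjusted p were 0.0006785, 0.0009645, 0.008736 and 0.01275. Klf4 was 3.86 without Yap/Taz KO CCl4 replicate 3 and Foxm1 5.08 without replicate 2, both still called, and Klf4 was 4.95 by limma voom. Neither fall was called with only the groups compared (adjusted p = 0.08017 for Cebpa and 0.1201 for Mxi1), and Mxi1 was not called with library totals (0.198).

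Of 13 ubiquitin ligase genes for G1 regulators, 1 rose in KO cells after CCl4, Dtl, by 4.03 ± 0.91 with an edgeR adjusted p of 0.005393. Among all tested genes 12.1% rose in that comparison. None of the 3 genes of the CDK-activating kinase passed edgeR, DESeq2 or limma voom in that comparison, and 0 had an unadjusted p under 0.05. In the comparison of KO cells with and without CCl4, 12 of 12 macrophage, 9 of 10 endothelial and 7 of 8 tested stellate markers rose. The part of these markers' cells in the pathway and member counts was not tested.

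In WT cells, CCl4 raised 1 gene of each of 2 lists: Mcm6 by 1.61 ± 0.33 and the p53 target Eda2r by 2.33 ± 0.49, with edgeR adjusted p of 0.02907 and 0.03262. The call of Mcm6 was lost without WT CCl4 replicate 1, 2 or 4 or WT untreated replicate 1, 2 or 3, and that of Eda2r without WT CCl4 replicate 2, 3 or 5 or WT untreated replicate 1, 3, 4 or 5. Limma voom did not call Eda2r (adjusted p = 0.08266). With replicate numbers as a block, edgeR called neither Mcm6 (adjusted p = 0.07244) nor Eda2r (0.07183). Of the markers of other cells, 2 of 10 endothelial, 1 of 8 tested stellate and 0 of 12 macrophage markers were higher by edgeR in WT CCl4 than in WT untreated, and 9, 5 and 8 of them had an unadjusted p under 0.05. Of the 11 later cyclins and kinases edgeR called 0, DESeq2 1 and limma voom 0, and 1 had an unadjusted p under 0.05. WT untreated replicate 5 had 146 summed CPM of these genes, against 32.2 to 37.6 in the other WT untreated libraries and 52.8 to 90.0 in the WT CCl4 ones. Without both libraries over 30% mitochondrial counts, 4 of 11 rose in WT cells.

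Between genotypes after CCl4, 12 of 23 S-phase genes were higher in Yap/Taz KO than in WT cells, led by Mcm5 at 2.27 ± 0.45, Mcm2 at 1.63 ± 0.36 and Fen1 at 1.55 ± 0.35, with edgeR adjusted p of 0.004194, 0.008798 and 0.01029. Without Yap/Taz KO CCl4 replicate 2 the count was 2, and Mcm2 and Fen1 were not called; it was 6 without replicate 3, and 6 or 7 without WT CCl4 replicate 2, 3, 4 or 5. It was 6 with library totals and 7 with only the groups compared. With replicate numbers as a block, Lig1, Mcm3, Mcm6, Mcm7, Rpa2 and Tyms of this list were not called. Of 19 p53 targets 3 were higher, Pmaip1 by 5.54 ± 1.05, Psrc1 by 1.66 ± 0.49 and Bax by 0.84 ± 0.26 (adjusted p = 0.003455, 0.03731 and 0.04375 by edgeR). Among all tested genes 7.62% were higher in this comparison. None of the 19 was called without Yap/Taz KO CCl4 replicate 3, and 1 was without WT CCl4 replicate 1, 2, 4 or 5, with no filter on low counts or with only the groups compared. The block on replicate numbers lost Pmaip1, Psrc1 and Bax. Rbl2 was lower, at -0.81 ± 0.25 log2, and Klf4 higher by 5.07 ± 0.86, with edgeR adjusted p of 0.04599 and 0.001733, and neither was called without Yap/Taz KO CCl4 replicate 3, where Klf4 was 2.45 and Pmaip1 2.51. Rbl2 was also lost without each of WT CCl4 replicates 1, 2, 3 and 5, Yap/Taz KO CCl4 replicate 2, WT untreated replicates 2, 4 and 5, and Yap/Taz KO untreated replicates 1 and 2. Library totals, no filter, only the groups compared and the block (edgeR adjusted p = 0.1198) lost Rbl2 too. So did leaving out both libraries over 30% mitochondrial counts (0.252). Of the 11 later cyclins and kinases edgeR and DESeq2 called 0 and limma voom 5, and 3 had an unadjusted p under 0.05. edgeR called 5 higher without WT untreated replicate 5, and 4 without both libraries over 30% mitochondrial counts or with only the groups compared. In this comparison 12 of 12 macrophage and 3 of 10 endothelial markers were also higher.

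In untreated cells 1 pathway gene passed between genotypes, Pkmyt1, with 3 counts in Yap/Taz KO untreated and 90 in WT untreated libraries and an edgeR adjusted p of 0.02664. The ratio was 0.0337, with a 95% counting interval of 0.00681 to 0.102. The fitted log2 difference was -4.64, and -3.24 without WT untreated replicate 5. DESeq2 called 4 of the 11 later cyclins and kinases there and limma voom none. By edgeR 8 of the 11 had an unadjusted p under 0.05, and the list median was -3.05. WT untreated replicate 5 had 146 summed CPM of these genes, and the other WT untreated libraries had 32.2 to 37.6. Yap/Taz KO untreated libraries had 16.7 to 34.8. With only the groups compared, Pkmyt1 did not pass the filter, and it lost the call without any 1 of the 4 Yap/Taz KO untreated libraries. It was also lost with replicate numbers as a block (edgeR adjusted p = 0.1996). The difference of the CCl4 effects was called for Pkmyt1, Mcm5 at 2.86 ± 0.64, Mcm2 at 2.67 ± 0.52 and E2f1 at 1.51 ± 0.31, with edgeR adjusted p of 0.03762, 0.04544, 0.03821 and 0.04309. With library totals or with no filter, Mcm5, Mcm2 and E2f1 were not called. The block on replicate numbers lost Pkmyt1, Mcm5, Mcm2 and E2f1. Limma voom called no gene of their 3 lists, and edgeR none without Yap/Taz KO CCl4 replicate 3. For this difference DESeq2 called 9 of 23 S-phase genes, 5 of 11 later cyclins and kinases and 2 of 13 pocket protein and E2F genes. By edgeR 17, 6 and 4 of these had an unadjusted p under 0.05. Leaving out 1 library at a time, edgeR called 0 to 9, 0 to 5 and 0 to 2 of them higher, and 0 to 1 S-phase genes lower. With each of the 17 libraries left out in turn, the call was lost in 10 cases for Pkmyt1, 14 for Mcm5, 12 for Mcm2 and 13 for E2f1.

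Over the 17 libraries, the genes with levels most like each member were found among 11977 genes by Pearson's r of log2(CPM + 0.5), as a description. Ccnd1 was most like Cyp4a31 (r = 0.922) and Tmem43 (0.881), Cdkn1a most like Icosl (0.889), and Cdkn2c most like Lgals1 (0.915) and Ccnb2 (0.913). Ccnd2 was most like Dse (0.916) and Pcdhgc4 (0.915), and Cdkn1b most like Mrfap1 (0.904) and Tram1 (0.867). Cdk6 was nearest to Gda (0.843) and Antxr2 (0.842), Cdk4 to Adipor1 (0.807) and Rps7 (0.773), and Ccne2 to Thap12 (0.801) and Slc16a7 (0.772). Ccne1 was nearest to Nrg4 (0.783) and Smyd5 (0.761), and Ccnd3 to Pm20d2 (0.759) and Pbx2 (0.754). The libraries share their groups, and genes that differ between the same groups are alike in this measure.

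Promoter windows of 250 bases were taken for 7 of the 10 members from the RefSeq table used here, and those of Ccnd1, Ccnd2 and Ccne2 were not analysed here. All 250 bases of the second Cdkn2c window lay in that gene's own exons. The windows of Cdk6 and Ccne1 and the second window of Ccnd3 held 57, 44 and 31 such bases. None of the windows of the 7 held an E2F word (TTTGGCGC, TTTCCCGC, TTTGCCGC or TTTCGCGC, either strand), which 1.86% of all promoters hold. The TEAD word GGAATG, a letter string of the partners of Yap and Taz, was in the second window of Ccnd3 and in no other member's, and in 12.64% of all promoters. TATAAA was in the window of Cdk6, and in 12.37% of all promoters. These letters say nothing of factors bound elsewhere or through other words.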

How the data were processed

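RNA of FACS-sorted hepatocytes was sequenced in 17 samples, and the labels name the Qiagen MicroRNEasy and NEBNext Ultra II RNA kits. The authors deposited 1 table of raw read counts per gene. STAR 2.4.1d and mm10 are named in the submitters' processing notes; the annotation, counting tool and strand setting were not given in the sources used here.

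Samples were grouped by their labels. Counts were fitted with edgeR 4.0.16 in R 4.3.3 (quasi-likelihood, robust, TMM scaling) over all 17 samples and 13721 genes kept by filterByExpr (minimum count 10, minimum total 15), with Benjamini-Hochberg adjustment over all of them. Calls were made below an adjusted p of 0.05. SE is the log2 fold change over the root of F, and intervals are at 95%. CPM is the count scaled to the TMM-adjusted library total (CPM in its usual sense), and CPM per kb divides by summed exon length. Counting intervals are exact binomial intervals and cover counting error only. The fit was also run on simulated counts, to check that known fold changes were recovered. These counts were drawn from a common mean per gene, so they do not bear on outlying libraries or on the calls made here. Alternatives were other scalings and filters, DESeq2 1.42.0, limma voom 3.58.1, only the groups compared, a replicate block, no mitochondrially encoded genes, and each library left out. List counts and values of named pathway genes under the alternatives were added after the data were seen. No 2 libraries of the same group were duplicates (lowest chi-square per gene 23.4, between Yap/Taz KO untreated replicates 3 and 4, over genes of at least 20 counts). Libraries of different groups were not compared in this way.

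The members and lists were chosen with earlier results of these data known. Named were all members, the 3 called genes of smallest p per list and comparison, and the 2 genes most like each member, of which 1 is not reported here. Mcm10 and Mxi1, and genes named for small counts, were chosen after their values were seen.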

Additional observations from a re-analysis of the deposited data

Results flagged for a closer look

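Ccnd2 in Yap/Taz KO untreated replicate 1 had 0.7465 CPM, against 0 to 0.110 CPM in the other 3 libraries of its group. The gap to the nearest library was 0.853 of the group's range, above Dixon's critical value of 0.829. Ccnd2 in WT untreated replicate 4 had 1.327 CPM, against 0.167 to 0.502 CPM in the other 4, a gap of 0.7105 of the range beside a critical value of 0.71. These were the 2 libraries that stood apart among the 30 sets of 1 member in 1 group of 4 or 5 libraries. For normally spread values, chance alone marks about 1 in 20 such sets. Both flagged sets held few counts, 0 to 17 and 2 to 18 per library, and that rate may not hold for them.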

How the results depend on the processing

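Ccnd1 and Cdkn2c for CCl4 in KO cells kept their calls under all alternatives run. For CCl4 in WT cells, library totals called 651 genes and 3 members and DESeq2 494 and 2, and leaving out both libraries over 30% mitochondrial counts called 187 genes. For Yap/Taz KO CCl4 against WT CCl4, no filter on low counts called 0 members, and leaving out both libraries called 555 genes and 0 members. DESeq2 called 328 genes between untreated genotypes, and only the groups compared called 1273 for CCl4 in KO cells. For the difference, library totals called 28 genes, no filter 33, DESeq2 783, limma voom 9 and leaving out both libraries 9. The cause was not tested. With each library left out, genes and members called ran from 1666 to 3079 and 2 to 4 for CCl4 in KO cells, and from 63 to 179 and 0 to 2 for CCl4 in WT cells. They ran from 418 to 2216 and 0 to 1 between genotypes after CCl4, from 89 to 152 with 0 members between untreated genotypes, and from 0 to 867 with 0 members for the difference.

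Some uncalled members changed sign. Library totals gave Ccnd3 0.11 and Cdkn1b 0.14 for CCl4 in KO, Ccnd3 0.14 for CCl4 in WT and 0.12 between untreated genotypes, and Ccnd3 -0.031 and Cdk4 -0.11 for the difference. For CCl4 in KO, Ccnd3 was 0.0013 with RLE scaling, 0.0006 with DESeq2 and 0.012 with limma voom. Cdkn1b between genotypes after CCl4 was -0.020 without mitochondrially encoded genes. Without both libraries, Cdk4 was -0.052 and Cdkn1b 0.018 for CCl4 in KO, and Cdk4 was -0.056 between genotypes after CCl4 and -0.078 for the difference. With each library left out, values for CCl4 in KO were -0.18 to 0.25 for Ccnd3, -0.19 to 0.0745 for Cdkn1b and -0.053 to 0.43 for Cdk4. For CCl4 in WT they were -0.22 to 0.62 for Ccne1 and -0.0088 to 0.16 for Cdk4. Between genotypes after CCl4 they were -0.057 to 0.41 for Cdk4, -0.10 to 0.12 for Cdkn1b and -0.29 to 0.12 for Cdkn2c. Between untreated genotypes they were -0.33 to 0.15 for Ccnd3, -0.17 to 0.62 for Ccne1 and -0.15 to 0.18 for Cdk4, and for the difference -0.12 to 0.36 for Cdk4.

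The labels give groups the same replicate numbers but do not pair samples by them, and nothing says that a number marks a shared animal or day. Same-numbered libraries did not deviate together (mean correlation -0.019 over 22 pairs, against 0.00495 over 85 others). The replicate block fits terms for these unpaired numbers. With it, 49 genes were called for CCl4 in WT cells, 867 genes and 0 members between genotypes after CCl4, and 3 genes for the difference. Ccnd2 for CCl4 in KO was 3.41 with an edgeR adjusted p of 0.07379, and Cdkn1a between genotypes after CCl4 2.32 with 0.07917. With the block Ccnd3 for CCl4 in KO was 0.050 and Cdkn2c between genotypes after CCl4 0.022. Depth limits Ccnd2 most, with 0 to 68 counts per library.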
